A study of Homo sapiens with 6 samples.

Results

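The genes described here encode 9 receptors of haematopoietic growth factors. They are the receptors for erythropoietin (EPOR), stem cell factor (KIT), FLT3 ligand (FLT3), macrophage colony-stimulating factor (CSF1R) and granulocyte colony-stimulating factor (CSF3R), the alpha chains for GM-CSF and interleukin-3 (CSF2RA and IL3RA), the beta chain that both of these use (CSF2RB), and gp130 (IL6ST). Members were found by gene symbol in the platform's annotation of the array. All 9 genes were found, on 11 of 67528 features, because CSF2RA and IL3RA each have a feature placed on X and a feature placed on Y. All 11 features list a single symbol. FLT3LG and KITLG, whose symbols hold the letters of a member, are ligand genes and were not counted as members.

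Expression was measured on 6 whole-transcript arrays, 1 for each of 3 proliferating human haematopoietic cell lines with each of 2 lentiviral shRNAs. One shRNA was directed at CXXC5, also called RINF, a zinc finger protein of the CXXC type, which binds DNA rich in CpG (shRINF, 3 arrays), and the other carried a control sequence (shcontrol, 3 arrays). All 6 cultures were therefore transduced, with 1 array per line and shRNA. The labels name no separate cultures, no shRNA sequence and no time, and the spread between arrays may be technical. UT7-5.3 is a derivative of UT-7, a line that needs a cytokine to grow, and its medium (alpha-MEM) contained GM-CSF, whereas the RPMI medium of K562 and MV4-11 had no cytokine listed. K562 comes from a chronic myeloid leukaemia and carries the BCR-ABL1 fusion kinase. MV4-11 comes from an acute leukaemia and carries an internal tandem duplication in FLT3, which these arrays do not resolve. In the comparisons with UT7-5.3, cell line and culture medium cannot be told apart, while K562 and MV4-11 shared their stated medium.

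These receptors belong to a pair of structural classes. EPOR, CSF3R, IL6ST, CSF2RA, CSF2RB and IL3RA are type I cytokine receptors, which have no kinase of their own and signal through bound JAK kinases to STAT transcription factors. CSF2RA and IL3RA bind their ligand, and CSF2RB carries most of the signal for both. KIT, FLT3 and CSF1R are receptor tyrosine kinases of class III, which dimerise on their ligand and signal through RAS, PI3 kinase and STAT5. In the marrow EPOR marks the red cell lineage, CSF3R and CSF1R mark the granulocytic and the monocytic lineage, and KIT and FLT3 mark progenitors.

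Values are log2 expression values made with RMA, and a difference of 1 is a 2-fold change. The file has no detection calls, and a value around 4 or lower is treated here as the floor of the array. The background may differ between features. Of 9 lymphoid markers, 3 averaged under 4 in UT7-5.3 and 4 averaged 6 or more. Among the latter, CD7 lay between 6.56 and 6.67 in all 3 lines. A value above 4 therefore does not by itself show expression, and folds against low values depend on a background that was not measured. Levels of different genes are not compared because each feature has its own probes. Across all features, arrays of a line correlated at 0.993 to 0.997 and arrays of different lines at 0.930 to 0.959. CXXC5, the targeted gene, was at 7.76 (shRINF) and 8.42 (shcontrol) in UT7-5.3, at 7.95 (shRINF) and 8.40 (shcontrol) in K562, and at 7.95 (shRINF) and 8.58 (shcontrol) in MV4-11. The 3 differences averaged -0.58 ± 0.11 (SD), with a limma adjusted p of 0.763 over 22465 genes. Of the lineage markers, GATA1, the main erythroid transcription factor, averaged 9.82 in UT7-5.3, 10.42 in K562 and 5.78 in MV4-11. ELANE, the neutrophil granule protease elastase, averaged 6.09 in UT7-5.3, 6.06 in K562 and 11.34 in MV4-11. KLF1, also erythroid, averaged 8.87 in UT7-5.3, 8.745 in K562 and 7.89 in MV4-11. Among granulocytic markers, CEACAM8 lay between 4.195 and 4.25 and LTF between 4.755 and 4.805 in all 3 lines. Calls use the threshold given with the line comparison below. The marker lists were chosen with earlier results of these data known, so the counts are descriptions only. Of 7 erythroid markers, 5 were called higher in K562 than in MV4-11, against 5.08% of all genes. Of 7 granulocytic markers 5, and of 9 monocytic markers 4, were called lower, against 5.79%. LYZ, lysozyme, averaged 9.97 in UT7-5.3, 9.38 in K562 and 11.91 in MV4-11, the integrin ITGAM 8.24 in UT7-5.3, 5.32 in K562 and 7.01 in MV4-11, and CD14 lay between 4.51 and 4.59 in all 3 lines.

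The first comparison asked how the receptors differ between the cell lines, and it held the large differences. UT7-5.3 was highest for KIT and CSF2RB, and MV4-11 for FLT3, IL3RA, CSF3R and CSF1R. K562 was the lowest of the 3 lines for CSF2RA, CSF2RB and IL3RA, and at or near the lowest values for KIT and FLT3. Lines were compared pairwise with limma in an additive fit of line and shRNA over 22465 genes, and a gene was called at an adjusted p under 0.05 and a difference of at least 2-fold. The only replicates of a line are its 2 arrays, 1 per shRNA, so that these p-values measure the spread between those arrays after the mean shRNA difference. Between UT7-5.3 and K562, 4 of the 9 receptors were called, against 7.09% of all genes. All 4 (KIT, CSF2RB, CSF2RA and IL3RA) were higher, as 4.19% of genes were, and none lower, against 2.9%. Between K562 and MV4-11 it was 5 of 9, against 10.9%. All 5 (FLT3, IL3RA, CSF2RA, CSF3R and CSF1R) were lower in K562, against 5.79% of genes, and none higher, against 5.08%. Between UT7-5.3 and MV4-11 it was 6 of 9, against 9.77%. There KIT, CSF2RB and IL6ST were higher in UT7-5.3, as 5.08% of genes were, and FLT3, IL3RA and CSF3R lower, as 4.68% were. The median difference of the receptors was 0.78 for UT7-5.3 minus K562, -1.03 for K562 minus MV4-11 and -0.54 for UT7-5.3 minus MV4-11, while the medians of all genes lay between 0.005 and 0.025. No test of the list was made, and its members were chosen with earlier results of these data known. The shares over all genes include genes low in every line. Among 15330 genes at log2 5 or more on 2 arrays, 1505, 2317 and 2079 were called, in the same order of pairs. The receptors called stayed at 4, 5 and 6 of 9. Such a filter lets a gene in through the line where it is high.

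**Figure D1:**
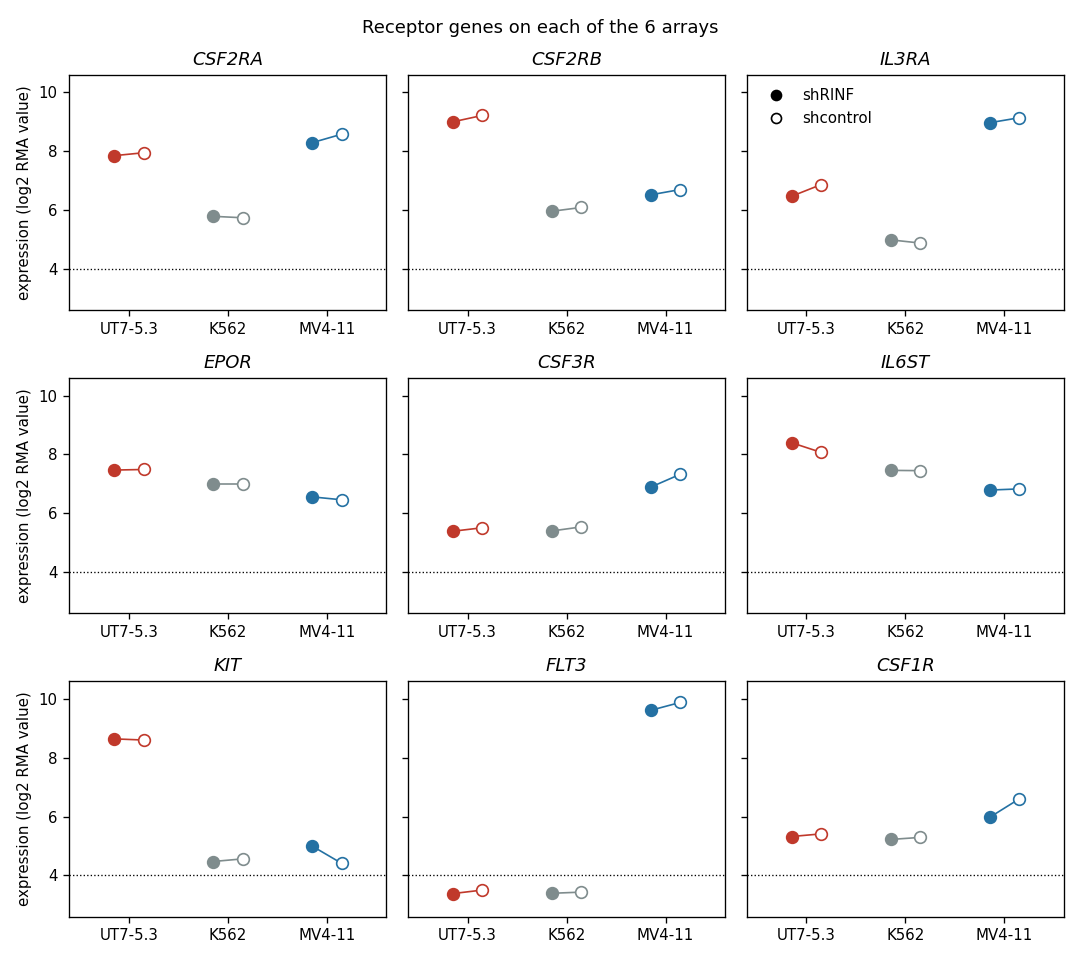
Log2 RMA value of each receptor gene on the 6 arrays (vertical axis), by cell line (horizontal axis). Filled circles are shRINF arrays, open circles shcontrol arrays, each joined to its partner of the same line, and the dotted line marks log2 4. FLT3 lies below the dotted line in UT7-5.3 and K562 and above 9 in MV4-11, and KIT lies above 8 in UT7-5.3 alone.

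CSF2RB, the shared beta chain of the GM-CSF, interleukin-3 and interleukin-5 receptors, was highest in UT7-5.3. It was at 9.0 (shRINF) and 9.22 (shcontrol) in UT7-5.3, at 5.96 (shRINF) and 6.09 (shcontrol) in K562, and at 6.52 (shRINF) and 6.70 (shcontrol) in MV4-11. The arrays of UT7-5.3 did not overlap those of the other lines. The difference was 3.08 ± 0.08 log2 units (SE), or 8.49-fold, from K562 (limma adjusted p = 2.14e-06) and 2.50 ± 0.08, or 5.66-fold, from MV4-11 (limma adjusted p = 3.14e-06). K562 differed from MV4-11 by -0.58, less than 2-fold, at a limma adjusted p of 0.00137.

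CSF2RA, the chain that binds GM-CSF, was lower in K562 than in the other lines. Its feature placed on Y was at 7.85 (shRINF) and 7.95 (shcontrol) in UT7-5.3, at 5.79 (shRINF) and 5.74 (shcontrol) in K562, and at 8.29 (shRINF) and 8.58 (shcontrol) in MV4-11. UT7-5.3 lay above K562 by 2.13 ± 0.10 (SE; limma adjusted p = 2.29e-05), and K562 below MV4-11 by -2.67 ± 0.10 (limma adjusted p = 5.14e-06). UT7-5.3 and MV4-11 differed by -0.54, less than 2-fold, with no overlap between their arrays (limma adjusted p = 0.00703). The gene lies in a region that X and Y share, and the X feature gave line means of 7.35 in UT7-5.3, 5.78 in K562 and 7.97 in MV4-11. Its difference between UT7-5.3 and K562 was smaller, at 1.58, and was called too.

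IL3RA, the chain that binds interleukin-3, lay apart in each pair of lines. Its feature placed on Y was at 6.47 (shRINF) and 6.87 (shcontrol) in UT7-5.3, at 4.99 (shRINF) and 4.88 (shcontrol) in K562, and at 8.97 (shRINF) and 9.14 (shcontrol) in MV4-11. The arrays of the 3 lines did not overlap. UT7-5.3 exceeded K562 by 1.74 ± 0.13 (SE), or 3.33-fold, at a limma adjusted p of 1.43e-04. K562 lay below MV4-11 by -4.12 ± 0.13, or 17.4-fold (limma adjusted p = 2.26e-06), and UT7-5.3 below MV4-11 by -2.38 ± 0.13, or 5.22-fold (limma adjusted p = 2.52e-05). The K562 values are close to the floor, so that the folds against K562 depend on where it lies. The X feature of IL3RA, also in the shared region, had line means of 6.62 in UT7-5.3, 4.85 in K562 and 9.005 in MV4-11. Over the 3 chains, UT7-5.3 was highest for CSF2RB, MV4-11 was highest for both alpha chains, and K562 was lowest for all 3.

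**Figure D2:**
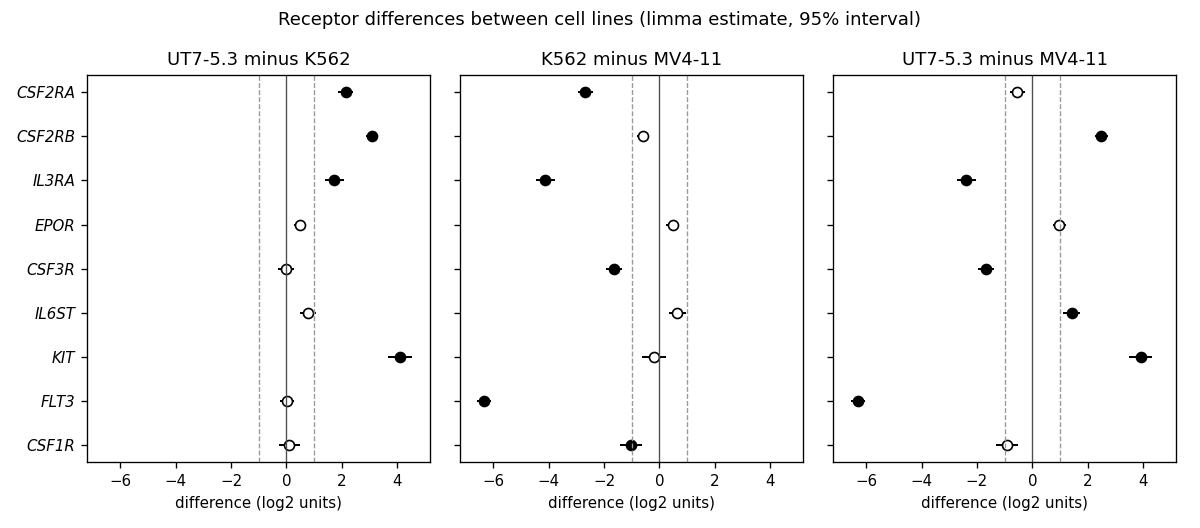
Difference between lines in log2 units (horizontal axis) for each receptor gene, with 1 panel for each pair of lines. Points are limma estimates from 2 arrays per line and bars their 95% confidence intervals, not adjusted for the number of genes. Filled points passed an adjusted p of 0.05 and 2-fold, and dashed lines mark 2-fold. FLT3 lies beyond -6 in both panels with MV4-11, and KIT near 4 in both panels with UT7-5.3.

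EPOR had a narrow range. It was at 7.47 (shRINF) and 7.49 (shcontrol) in UT7-5.3, at 6.99 on both arrays of K562, and at 6.56 (shRINF) and 6.46 (shcontrol) in MV4-11. The 3 lines were ordered without overlap in steps of 0.49 and 0.48. Both steps had an adjusted p under 0.05 (limma, 0.00475 and 0.00380), and neither reached 2-fold. UT7-5.3 exceeded MV4-11 by 0.97 ± 0.08 (SE), or 1.96-fold (limma adjusted p = 1.88e-04), just under the minimum. It was past it, and called, after median centring (1.01) or quantile normalization (1.03), and also without the shRINF array of UT7-5.3 (1.005) or of MV4-11 (1.025), where the lone array left of a line is assumed to vary like the others. The window of 250 bases before the start of EPOR was searched for AGATAA on both strands, a form of the site bound by GATA factors, a motif chosen after the sequences were seen. It holds 1 match. The other 9 windows of the receptors hold none, so that 1 of 10 has a match, near the 9.18% of 34959 such windows. The EPOR window is shown because it holds the match. EPOR is a known target of GATA1. In these lines GATA1 was highest in K562 and EPOR in UT7-5.3, and a relation of the levels was not tested. The sequence is from RefSeq (GRCh38.p14, chr19:11384315-11384564, minus strand), with the match, read as its reverse complement, in capitals. A match in this window does not show binding.
EPOR: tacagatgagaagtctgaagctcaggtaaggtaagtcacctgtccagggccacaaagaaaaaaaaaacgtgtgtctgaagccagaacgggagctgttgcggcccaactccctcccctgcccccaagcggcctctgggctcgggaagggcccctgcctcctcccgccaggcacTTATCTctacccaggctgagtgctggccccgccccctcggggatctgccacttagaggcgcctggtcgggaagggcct

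CSF3R, the receptor of neutrophil growth and release, was higher in MV4-11. It was at 5.39 (shRINF) and 5.51 (shcontrol) in UT7-5.3, at 5.40 (shRINF) and 5.54 (shcontrol) in K562, and at 6.89 (shRINF) and 7.33 (shcontrol) in MV4-11. UT7-5.3 and K562 overlapped and differed by -0.02, with a 95% confidence interval of -0.27 to 0.23. Against MV4-11 the difference was -1.66 ± 0.10 (SE) for UT7-5.3 (limma adjusted p = 5.32e-05) and -1.64 ± 0.10 for K562 (limma adjusted p = 4.54e-05). These are 3.16-fold and 3.12-fold differences, whose size depends on the background of this feature, which was not measured.

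IL6ST, the gp130 chain of the interleukin-6 family of receptors, is made by most cell types. It was at 8.40 (shRINF) and 8.07 (shcontrol) in UT7-5.3, at 7.46 (shRINF) and 7.45 (shcontrol) in K562, and at 6.79 (shRINF) and 6.83 (shcontrol) in MV4-11. The order of the lines was that of EPOR, with no overlap. UT7-5.3 exceeded MV4-11 by 1.43 ± 0.11 (SE), or 2.69-fold (limma adjusted p = 1.34e-04). UT7-5.3 exceeded K562 by 0.78, and K562 exceeded MV4-11 by 0.65, both less than 2-fold (limma adjusted p = 0.00245 and 0.00401).

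The 3 receptor tyrosine kinases each had a single high line. KIT was at 8.64 (shRINF) and 8.60 (shcontrol) in UT7-5.3, at 4.47 (shRINF) and 4.56 (shcontrol) in K562, and at 5.00 (shRINF) and 4.41 (shcontrol) in MV4-11. UT7-5.3 exceeded K562 by 4.10 ± 0.16 (SE), or 17.2-fold, and MV4-11 by 3.92 ± 0.16, or 15.1-fold (limma adjusted p = 1.04e-05 and 8.50e-06). K562 and MV4-11 overlapped, and their difference of -0.19 had a 95% confidence interval of -0.58 to 0.20. Both lay near the floor, so that the fold depends on where the floor lies.

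FLT3 had the widest range of the 9 receptors. Its values were 3.38 (shRINF) and 3.50 (shcontrol) in UT7-5.3, 3.39 (shRINF) and 3.43 (shcontrol) in K562, and 9.61 (shRINF) and 9.88 (shcontrol) in MV4-11. The 4 values of UT7-5.3 and K562 lie at the floor, overlap and have no order. The fitted difference was -6.30 ± 0.09 (SE) for UT7-5.3 and -6.33 ± 0.09 for K562 against MV4-11 (limma adjusted p = 3.60e-07 and 2.71e-07). Its size depends on where the floor lies and is not a measured fold.

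CSF1R, the receptor of monocyte and macrophage growth, was at 5.32 (shRINF) and 5.41 (shcontrol) in UT7-5.3, at 5.22 (shRINF) and 5.29 (shcontrol) in K562, and at 5.97 (shRINF) and 6.60 (shcontrol) in MV4-11. MV4-11 lay above the other lines on both arrays. K562 was below it by -1.03 ± 0.15 (SE; limma adjusted p = 0.00174), just past 2-fold, and UT7-5.3 by -0.92 ± 0.15 (limma adjusted p = 0.00321), just short of it. The call for K562 ended with median centring (-0.99) or quantile normalization (-0.998), where the difference missed 2-fold, and without any of 4 arrays. These were the MV4-11 shcontrol array (-0.76), the K562 shcontrol array (-0.89, limma adjusted p = 0.0646) and either UT7-5.3 array (limma adjusted p = 0.0539). Without the MV4-11 shRINF array, UT7-5.3 differed from MV4-11 by -1.20 and was called. The lone MV4-11 array is again assumed to vary like those of the other lines.

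CXXC proteins bind CpG, so the CpG content of the promoters is given as context for the shRNA comparison. RefSeq windows of 250 bases before the start were found for 8 of the 9 genes, 10 windows in all, since CSF1R and CSF3R each have 2 starts. The 34959 windows of this length, leaving out all those on Y and those with unknown bases, held a median of 11 CpG. The windows of KIT, IL6ST and FLT3 held 34, 31 and 26 CpG, and that of EPOR held 10. Those of CSF2RA and IL3RA held 4 each, CSF3R 3 and 8, and CSF1R 6 and 2. The windows of KIT and FLT3, above the median, and both windows of CSF1R, below it, are shown as examples with CpG in capitals. That of IL6ST, with more CpG than FLT3, is not shown. A relation of CpG content to the shRNA differences was not tested. The windows shown lie in GRCh38.p14 at chr4:54657707-54657956 on the plus strand for KIT, and, on the minus strand, chr13:28100577-28100826 for FLT3, chr5:150113366-150113615 for the upstream and chr5:150086555-150086804 for the downstream start of CSF1R. Methylation was not measured here.
KIT: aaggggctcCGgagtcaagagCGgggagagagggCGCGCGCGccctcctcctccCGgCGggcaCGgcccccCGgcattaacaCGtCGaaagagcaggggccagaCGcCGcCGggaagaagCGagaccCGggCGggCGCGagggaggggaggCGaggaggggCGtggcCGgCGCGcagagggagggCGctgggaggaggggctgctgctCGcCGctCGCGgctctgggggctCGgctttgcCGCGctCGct
FLT3: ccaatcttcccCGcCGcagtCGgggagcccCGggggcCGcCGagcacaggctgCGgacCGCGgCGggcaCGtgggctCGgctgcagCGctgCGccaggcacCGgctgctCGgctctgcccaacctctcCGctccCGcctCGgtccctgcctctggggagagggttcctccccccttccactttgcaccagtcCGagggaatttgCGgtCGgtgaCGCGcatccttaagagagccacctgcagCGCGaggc
CSF1R upstream start: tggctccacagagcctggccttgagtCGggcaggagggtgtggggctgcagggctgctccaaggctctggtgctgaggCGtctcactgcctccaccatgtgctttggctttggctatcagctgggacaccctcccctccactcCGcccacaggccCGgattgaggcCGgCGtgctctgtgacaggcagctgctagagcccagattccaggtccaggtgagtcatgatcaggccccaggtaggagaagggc
CSF1R downstream start: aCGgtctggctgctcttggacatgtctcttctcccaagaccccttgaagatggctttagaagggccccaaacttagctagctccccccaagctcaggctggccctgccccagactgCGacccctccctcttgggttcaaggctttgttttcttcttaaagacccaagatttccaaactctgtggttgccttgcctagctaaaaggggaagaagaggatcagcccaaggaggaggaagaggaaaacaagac

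The second comparison, of shRINF with shcontrol, asked whether receptor levels differ with the knockdown. No receptor passed the test, and the mean differences, from -0.26 to 0.18, were small beside those between lines. At an adjusted p under 0.05 in limma with the line as a block, 0 of 9 receptors and 0.0% of the 22465 genes were called. CXXC5, the targeted gene, was not called either, so the lack of a call does not show that a receptor was unchanged. At an unadjusted p under 0.05 there were 1213 genes, 5.4%, among them 2 receptors, CSF3R and CSF2RB. Both were lower, as 2.3% of genes were, and no receptor was higher, against 3.1%. In 4 of the 9 receptors, CSF1R, CSF3R, CSF2RB and FLT3, the shRINF value lay below the shcontrol value in all 3 lines, as it did in 15.7% of all genes, and no receptor lay above in all 3, against 12.1%. For FLT3 this ordering includes UT7-5.3 and K562, where its values are at the floor and have no order. The median of the receptors' mean differences was -0.14, and that of all genes -0.01. With 3 pairs, an exact sign-flip test cannot give a two-sided p below 0.25.

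**Figure D3:**
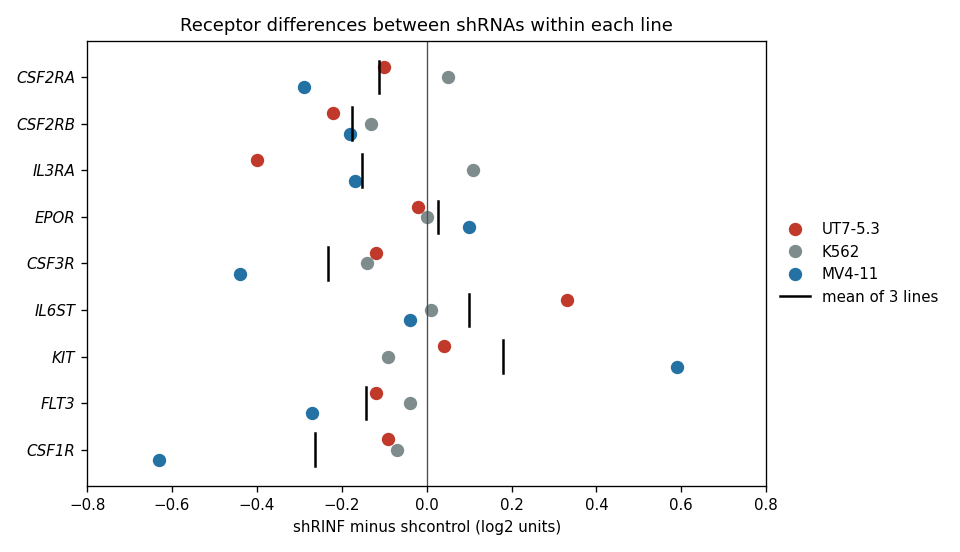
Difference of shRINF minus shcontrol in log2 units (horizontal axis) for each receptor gene in each of the 3 lines, 1 pair of arrays per line. Coloured points are lines and black bars the mean of 3 lines. The points farthest from 0 are CSF1R at -0.63 and KIT at 0.59, both in MV4-11.

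The 2 largest differences of any receptor were in MV4-11. There 7 of the 9 receptors had a lower value with shRINF, against 47.8% of all genes, and 2 a higher one, against 48.1%. CSF1R differed there by -0.63, to 64.6% of the control level, and CSF3R by -0.44, to 73.7%. A difference as large in either direction was met by 0.917% of all genes in MV4-11 for CSF1R and by 2.52% for CSF3R. The share was 1.13% for KIT and 19.3% for CSF2RB. All genes were counted, with no filter on low values. FLT3 differed by -0.27, CSF2RA by -0.29 and CSF2RB by -0.18. KIT lay above control by 0.59, with values of 5.00 (shRINF) and 4.41 (shcontrol), close to the floor. These are ranks among the genes of 1 pair of arrays, with no test.

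Markers of myeloid cells also differed between the MV4-11 arrays. Of 9 monocytic markers measured, 7 had a lower value with shRINF, with a median difference of -0.37, and their mean level was 6.77 (shRINF) and 7.18 (shcontrol). LYZ was at 11.49 (shRINF) and 12.33 (shcontrol), S100A9 at 7.66 (shRINF) and 8.72 (shcontrol), and ITGAM at 6.66 (shRINF) and 7.36 (shcontrol). CD14, at 4.55 (shRINF) and 4.63 (shcontrol), and VCAN, at 3.25 (shRINF) and 3.21 (shcontrol), lay near or at the floor. CD68 was slightly higher with shRINF, at 10.08 (shRINF) and 9.99 (shcontrol). Of 7 granulocytic markers 6 were higher, with a median of 0.73 and a mean level of 9.20 (shRINF) and 8.63 (shcontrol). MPO, ELANE, CTSG and PRTN3, genes of the primary granules made by immature granulocytes, differed by 0.73 to 1.22. AZU1, also of the primary granules, differed by 0.02, and CEACAM8 and LTF, genes of later stages, by 0.04 and -0.03 near the floor. The part of these markers' cell types in the receptor values was not tested. In bulk RNA, fewer cells of a type and less RNA per cell cannot be told apart.

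In UT7-5.3 the receptor with the largest difference was IL3RA, at -0.40, or 75.8% of control, and its X feature gave -0.40 too. IL6ST differed by 0.33, or 125.7% of control, and CSF2RB by -0.22. KIT and EPOR, at 0.04 and -0.02, were close to 0. In this line 7 receptors had a lower value with shRINF, against 58.2% of all genes, and 2 a higher one, against 40.1%. Differences over all genes had an SD of 0.23, and 7.89% of genes differed by as much as IL3RA. Megakaryocytic markers had a median difference of -0.18 in UT7-5.3 over 9 genes, of which 5 were lower with shRINF and 3 higher. Their ends were ITGB3, at 6.75 (shRINF) and 7.61 (shcontrol), and TUBB1, at 6.59 (shRINF) and 6.05 (shcontrol). Erythroid markers had a median of 0.20 over 7 genes.

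In K562 the receptor differences lay between -0.14 for CSF3R and 0.11 for IL3RA, with the Y features of CSF2RA and IL3RA. Their X features differed by 0.23 for CSF2RA, outside this range, and by 0.0 for IL3RA. Lower values with shRINF were found for 5 receptors, against 45.1% of all genes, and higher ones for 3, against 50.1%, with EPOR equal on both arrays. All genes had an SD of 0.11 in this line.

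Over the 3 lines, CSF2RB had the mean difference of smallest SD among the 9 receptors, at -0.18 ± 0.05 (SD, n = 3; limma adjusted p = 0.763), with a 95% confidence interval, not adjusted for the number of genes, of -0.33 to -0.02. CSF3R had -0.23 ± 0.18 (SD, n = 3; limma adjusted p = 0.763), with an interval of -0.44 to -0.03. CSF1R had -0.26 ± 0.32 and FLT3 -0.14 ± 0.12 (SD, n = 3), where 2 of the lines had FLT3 at the floor. Without MV4-11 the mean was -0.08 for CSF1R, -0.13 for CSF3R and -0.08 for FLT3. EPOR had 0.03 ± 0.06, with an interval of -0.13 to 0.19. KIT, IL6ST, IL3RA and CSF2RA had opposite signs between lines, and their means lay between -0.15 and 0.18. On its X feature IL3RA was positive in no line, with a mean of -0.20. Without UT7-5.3 the mean of IL3RA was -0.03, and without MV4-11 that of CSF2RA was -0.025.

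The wider pathway was described by 5 lists, chosen with earlier results of these data known. Of 33 further receptors of cytokines and growth factors, 31 had a feature with their symbol alone. In the counts of called genes, the shares over all genes are 4.19% higher and 2.9% lower for UT7-5.3 minus K562, 5.08% and 5.79% for K562 minus MV4-11, and 5.08% and 4.68% for UT7-5.3 minus MV4-11. Of the 31 receptors, 3 were higher and none lower in UT7-5.3 than in K562, 2 were higher and 6 lower in K562 than in MV4-11, and 3 were higher and 5 lower in UT7-5.3 than in MV4-11. CXCR4, the receptor that holds progenitors in the marrow, averaged 4.87 in UT7-5.3, 4.84 in K562 and 9.04 in MV4-11. IL6R, the alpha chain that pairs with gp130, averaged 6.18 in UT7-5.3, 5.54 in K562 and 8.91 in MV4-11, the line with the lowest IL6ST. IL2RG, the common gamma chain, was lowest in MV4-11, at 8.43 in UT7-5.3, 8.61 in K562 and 5.39 in MV4-11. TEK, the angiopoietin receptor, averaged above log2 4 in UT7-5.3 alone, at 6.67. For CXCR4, IL6R and IL2RG both differences from MV4-11 were called, and for TEK both differences from UT7-5.3.

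Of 17 ligand genes 13 were measured. KITLG, which encodes stem cell factor, averaged 2.91 in UT7-5.3, 2.97 in K562 and 5.43 in MV4-11. It was thus above log2 4 only in MV4-11, a line with KIT near the floor. CSF1, the ligand of CSF1R, averaged 7.42 in UT7-5.3, 6.59 in K562 and 5.95 in MV4-11, an order unlike that of CSF1R, and the difference of 1.48 between UT7-5.3 and MV4-11 was called (limma adjusted p = 7.71e-05). LIF averaged above log2 4 in UT7-5.3 alone, at 5.74, and OSM spanned 0.48 between lines. In total 1 of 13 ligand genes was called between UT7-5.3 and K562 (7.09% of all genes), 1 between K562 and MV4-11 (10.9%), and 3 between UT7-5.3 and MV4-11 (9.77%).

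Of the JAK kinases and STAT factors, 9 of 11 were measured. STAT5A and STAT5B, the main STATs of EPOR, KIT and CSF2RB, were lowest in MV4-11. STAT5A averaged 9.04 in UT7-5.3, 9.47 in K562 and 7.36 in MV4-11, and STAT5B 8.62 in UT7-5.3, 9.12 in K562 and 7.60 in MV4-11. The differences of both from MV4-11 were called. STAT6, the STAT of the interleukin-4 receptor, averaged 7.87 in UT7-5.3, 7.32 in K562 and 8.86 in MV4-11, with K562 lower than MV4-11 by -1.54 as its 1 called difference. JAK1, which serves gp130, was highest in UT7-5.3, at 10.00, against 8.71 in K562 and 8.90 in MV4-11. In this list 2 genes were higher and none lower in UT7-5.3 than in K562, 2 higher and 1 lower in K562 than in MV4-11, and 3 higher and none lower in UT7-5.3 than in MV4-11.

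Among 28 feedback and target genes of cytokine signalling, PIM1 and PIM2, survival kinases induced through STAT5, were also lowest in MV4-11. PIM1 averaged 10.65 in UT7-5.3, 10.62 in K562 and 7.92 in MV4-11. DUSP6 and SPRY2, feedback inhibitors of the RAS-ERK pathway, were highest in MV4-11. DUSP6 averaged 6.04 in UT7-5.3, 4.34 in K562 and 7.50 in MV4-11. In this list 2 genes were higher and 1 lower in UT7-5.3 than in K562, 4 higher and 2 lower in K562 than in MV4-11, and 5 higher and 4 lower in UT7-5.3 than in MV4-11. Of 28 adaptors and phosphatases, PTPN6 (SHP-1) and INPP5D (SHIP1), which damp cytokine receptor signals, were lowest in K562. PTPN6 averaged 8.38 in UT7-5.3, 6.24 in K562 and 9.01 in MV4-11, and INPP5D 9.09 in UT7-5.3, 6.35 in K562 and 9.22 in MV4-11. Both differences from K562 were called for each gene. GAB3, an adaptor studied downstream of CSF1R in mouse cells, averaged 9.84 in UT7-5.3, 8.27 in K562 and 6.42 in MV4-11, and the phosphatase PTPN1 10.04 in UT7-5.3, 9.09 in K562 and 8.04 in MV4-11. In the list of adaptors 5 genes were higher and none lower in UT7-5.3 than in K562, 3 higher and 4 lower in K562 than in MV4-11, and 3 higher and 3 lower in UT7-5.3 than in MV4-11.

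**Figure D4:**
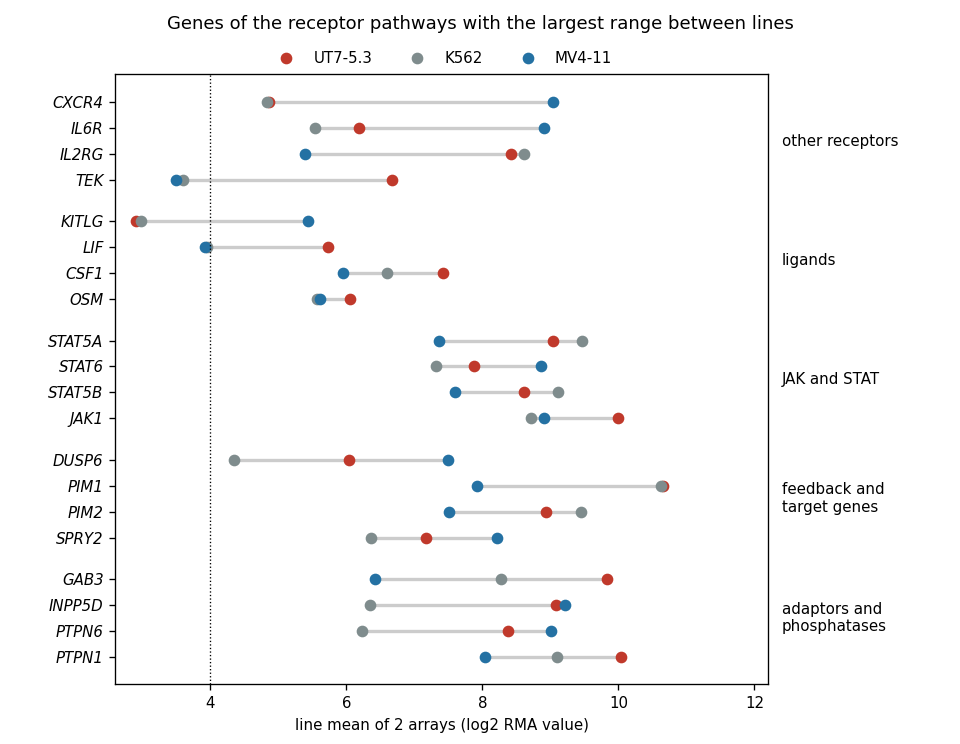
Line means of 2 arrays in log2 RMA units (horizontal axis) for the 4 genes of each of 5 pathway lists with the largest range between lines, with UT7-5.3 in red, K562 in grey and MV4-11 in blue. Grey bars span the lines, and the dotted line marks log2 4. STAT5A, STAT5B, PIM1 and PIM2 are lowest in MV4-11, and PTPN6 and INPP5D lowest in K562.

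With shRINF no gene of the 5 lists passed. The medians of the mean differences were -0.05 for the other receptors, -0.09 for ligands, -0.05 for JAK and STAT genes, -0.06 for feedback and target genes and -0.01 for adaptors, against -0.01 for all genes. EGR1, an immediate early transcription factor, had -0.49 ± 0.47 (SD, n = 3), with -1.02 in MV4-11. IL4R had -0.25 ± 0.08, IL11 -0.22 ± 0.10, CSF1 -0.15 ± 0.17, DUSP4 -0.17 ± 0.07 and FES -0.17 ± 0.13, each below control in all 3 lines, while GAB1 had 0.27 ± 0.22 and TFRC, the transferrin receptor, 0.17 ± 0.12, above it in all 3 (SD, n = 3; limma adjusted p = 0.763 for each).

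For the 5 receptors whose line means spanned 2 log2 units or more, the genes of most similar profile over the 6 arrays were sought among 16853 protein coding genes. The arrays form 3 pairs, so that likeness here is mostly likeness over 3 lines and is no sign of a shared role. The nearest to CSF2RA was PTPN6, at a root mean square distance of 0.07 log2 units after removing each gene's mean, followed by P2RX1 at 0.11. For IL3RA they were CD4 and PBX3, both at 0.15, for CSF2RB KCNK6 and KLHL6, both at 0.16, and for KIT TANC1 at 0.18 and CALCRL at 0.22. For FLT3 they were EMB at 0.28 and DACH1 at 0.33, with line means between 3.21 and 4.36 in UT7-5.3 and K562.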

How the data were processed

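The authors deposited 1 log2 value per feature and array. Per the submitters' processing notes, these come from RMA as run in Affymetrix Expression Console. RMA corrects background, equalises the distribution of probe values between arrays and summarises the probes of a feature, which removes a shift shared by most transcripts. No version or genome build is named in the labels, and the log base was taken as 2 from the method and the range of 1.63 to 13.89. Arrays give no counts, and their number limits the precision.

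Of 67528 features, 23781 had 1 symbol in the platform annotation, 1543 several and 42204 none listed. The first were named, 21497 of them updated through RefSeq (GRCh38.p14), and where a gene had several features, that of highest mean was taken, which gave 22465 genes. No filter on low values was used, since a filter lets a gene in through the line where it is high. Differences were fitted with limma 3.58.1 in R 4.3.3 (lmFit, eBayes, Benjamini-Hochberg over all genes), with 2 residual and 4.45 prior degrees of freedom. The arrays were paired by cell line, each line giving 1 array per shRNA, so that the line was the block of the shRNA comparison. The fits were tested on simulated data, with a minimum recovery required only for changes of 2 log2 units. That does not show how often differences as small as those of the receptors with shRINF would be called.

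The members and gene lists were chosen with earlier results of these data known. Genes named were the members, CXXC5, per list the 4 with the largest range between lines and the 2 with the largest shRNA difference of 1 sign, and 2 like genes per wide-ranging member. Lineage markers were named after their values were seen. Alternatives covered the filter, the feature, normalization, variance model, block, shRNA term, fold minimum and leaving out arrays. Of 189 list genes, 168 were found. GEO's columns map to the samples by name, and medians of the arrays lay between 4.64 and 4.71.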

Additional observations from a re-analysis of the deposited data

Results flagged for a closer look

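In 5 receptors shRINF minus shcontrol had opposite signs between lines. Each line gave 1 pair of arrays, and the difference between lines was not tested. KIT was at 0.59 in MV4-11 and -0.09 in K562, which are 0.68 apart. IL3RA was at 0.11 in K562 and -0.40 in UT7-5.3 on its Y feature, which are 0.51 apart. Its X feature was at 0.0 in K562, so that the opposite sign of IL3RA rests on the Y feature. IL6ST was at 0.33 in UT7-5.3 and -0.04 in MV4-11, which are 0.37 apart. CSF2RA was at 0.05 in K562 and -0.29 in MV4-11, which are 0.34 apart. EPOR was at 0.10 in MV4-11 and -0.02 in UT7-5.3, which are 0.12 apart. The groups of 3 arrays are too small for a search for outlying samples.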

How the results depend on the processing

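For shRINF minus shcontrol, no receptor and no gene was called in any of 11 alternatives, which included no replicate block (0 genes). Leaving out a line turned the sign of 3 mean differences, which ranged from -0.01 to 0.05 for EPOR, -0.025 to 0.315 for KIT and -0.015 to 0.17 for IL6ST. Between lines, 404 of 435 alternative values of single receptors kept their direction and their side of the threshold. Those whose sign turned when 1 array was left out were all uncalled. They were FLT3 (-0.0475 to 0.1075), CSF1R (-0.035 to 0.255) and CSF3R (-0.105 to 0.065) for UT7-5.3 minus K562, and KIT for K562 minus MV4-11 (-0.4975 to 0.1175; 0.15 on shcontrol arrays alone, a setting chosen after seeing the data). With no fold minimum the genes called were 6539 for UT7-5.3 minus K562, 8130 for K562 minus MV4-11 and 7871 for UT7-5.3 minus MV4-11, and with a 4-fold minimum 483, 801 and 706. Receptors called for K562 minus MV4-11 were 8 with no minimum and 3 at 4-fold. With 2 arrays per line and no detection calls, levels near the floor cannot be ordered.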
